A study of Cicer arietinum with 24 samples.

Results

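Whole seeds of the small-seeded chickpea (Cicer arietinum) cultivar Himchana 1 at seed stage S5 were compared with seeds at stage S4, the step at which the seed enters mid-maturation. The comparison rests on 6 of the 24 samples, 3 biological replicates for each of both stages, and on the genes that had at least 1 locus carrying their identifier alone and that reached 1 FPKM at S4 or S5. This gave 14722 of 25111 genes. The remaining 10389 genes were below 1 FPKM at both stages, and 181 of them lay between 0.9 and 1 FPKM at the stage where they were higher, against 150 of the genes compared that lay between 1 and 1.1 FPKM.

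Messenger RNA was measured in field-grown plants of a single cultivar, with no treatment, at 7 numbered seed stages (S1 to S7) and in leaves collected while seeds were in mid-maturation. Of these stages, S3 stands for late-embryogenesis, S5 for mid-maturation and S7 for late-maturation, and S4 lies between S3 and S5. Expression was given as FPKM, a measure of fragments that takes transcript length and the number of mapped fragments into account, and each stage has 1 value in which its 3 replicates were merged. None of the differences below therefore has a replicate check, an error or a test, and each describes these merged values only.

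A legume seed first builds its embryo by cell division and differentiation. It then turns to maturation, when the cotyledon cells stop dividing, enlarge and fill with storage protein, starch and oil, and later acquires tolerance to drying. Genes for the cell cycle are typically active in the first phase, storage-product genes in the second, and genes for late embryogenesis abundant and other protective proteins towards its end. Whole seeds hold the embryo, the seed coat and, at young stages, the endosperm, so fewer cells of a type and less RNA per cell cannot be told apart in these values. No marker of a seed tissue is paired with a gene identifier in the sources, and the stage labels could be set only against the gene lists below.

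The difference between stages was expressed as log2 of the ratio of FPKM + 1 at S5 to FPKM + 1 at S4, which understates the difference of genes with low values. On this scale, 1853 genes had an S5 value at least 2-fold higher (12.6% of the genes compared) and 1965 genes an S5 value at least 2-fold lower (13.3%). The other 10904 genes (74.1%) differed by less than 2-fold. The median difference was -0.04, and the lower and upper quartiles were -0.58 and 0.52. Just inside and outside the limit, 239 genes lay between 1 and 1.1 and 287 between 0.9 and 1 on the higher side, against 290 between -1.1 and -1 and 354 between -1 and -0.9 on the lower side.

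Large differences were mostly in the direction of higher values at S5. At a 4-fold difference, 630 genes were higher and 453 lower, at 8-fold 324 and 136, at 16-fold 191 and 62, and at 32-fold 126 and 39. The balance also varied with level. Genes were placed by their mean level in the other 6 libraries, which took no part in the comparison. That mean includes S6 and S7, whose summed FPKM (1987710 and 2100740) was the largest of the 6. Ca_12606, for example, had a high mean through 17985 FPKM at S6, although it was below 0.5 FPKM in leaf and at S1, S2 and S3. The share of higher genes at a high mean is therefore partly set by the late stages. Of the 150 genes with a mean of 1000 FPKM or more, 41.3% were higher and 6.00% lower at S5. The 5058 genes with a mean between 1 and 10 FPKM leaned the other way, with 10.8% higher and 17.4% lower, whereas the 777 genes with a mean below 1 FPKM again had more higher (27.3%) than lower genes (19.9%). Genes with so low a mean were compared only because S4 or S5 reached 1 FPKM. That filter favours 2-fold differences in their class, so both of its shares are partly set by it.

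**Figure D1:**
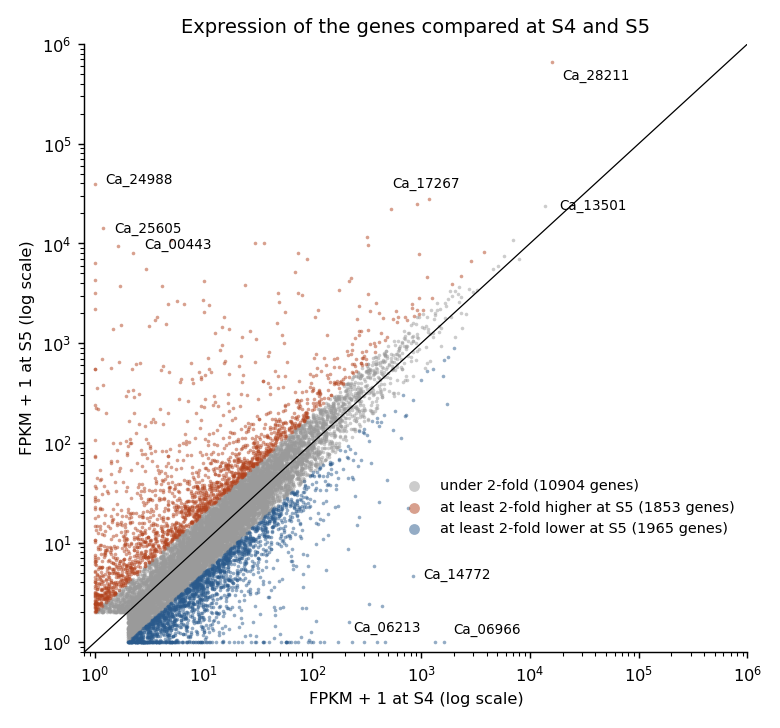
Each point is 1 of the 14722 genes compared, with FPKM + 1 at S4 on the x axis and at S5 on the y axis (both log scales) and the line marking equal values. The cloud of 10904 grey genes follows the line, the 1853 genes higher at S5 reach up to Ca_28211 at 663915 FPKM, and points along the bottom edge are genes listed at 0 at S5.

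The sum of FPKM over genes was 652969 at S4 and 1818540 at S5, whereas the 75th percentile over loci was 11.3 FPKM at both stages. Of the gain in the sum, 97.7% came from genes at least 2-fold higher, 71.7% from the 12 genes with the largest gains and 55.6% from the single gene Ca_28211. The split between higher and lower genes depends on this gain. When both stages were rescaled to the same sum, the median difference moved to -1.31, and 553 genes were higher against 9858 lower, so that the higher genes made up 5.31% of the genes past 2-fold instead of 48.5%. The share was 13.1% after rescaling to the same sum without Ca_28211, with a median of -0.80, and 31.4% after scaling by the upper quartile of genes above 0, with a median of -0.31. Scaling by the median of ratios over the genes at 1 FPKM or more in every library left 45.1%, with a median of -0.09. All differences below are for the deposited values, whose median over genes lay near 0, and the scaling between stages is not given in the sources used here. Fragments per library are not known either, since low values at the 2 stages did not fall on a common step.

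A few genes took a much larger part of the FPKM at S5. The 10 highest genes held 10.7% of the summed FPKM at S4 and 46.7% at S5, and the 100 highest genes 29.2% and 64.5%. Genes at 10000 FPKM or more numbered 2 at S4 and 12 at S5, and those at 1000 FPKM or more numbered 68 and 164. Of the latter, 54 were common to both stages, 14 reached 1000 FPKM only at S4 and 110 only at S5. In libraries that the comparison did not use, 30 of these 110 genes were below 1 FPKM in leaf, 14 were already at 1000 FPKM or more at S3, 59 at S6 and 45 at S7, and 12 were below 1 FPKM at S6. Of all 14722 genes compared, 15.5% were below 1 FPKM in leaf, and 3273 genes were so at S6. Over all 25111 genes, 77 were at 1000 FPKM or more at S3, 301 at S6 and 276 at S7. The 110 genes thus included 59 that were at 1000 FPKM or more at S6 and 12 that were below 1 FPKM there. The latter were a smaller share than among all genes compared.

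Ca_28211 was the highest gene at both stages. It was at 15888 FPKM at S4 and 663915 FPKM at S5, and its share of the summed FPKM went from 2.43% to 36.5%. Leaf held 13013 FPKM of it, S1 15936 and S2 8156 FPKM, against 141277 FPKM at S3, 188664 at S6 and 108888 at S7. It was therefore high in every library, and S4 was low between higher values at S3 and S5.

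Another 2 of the 6 genes highest at S5 were likewise lower at S4 than at S3 and S5. Ca_25190 went from 923 FPKM at S4 to 24826 FPKM at S5, after 5058 FPKM at S3, and Ca_28034 from 530 to 21919 FPKM, after 4778 FPKM at S3. The level of Ca_28034 was between 2.97% and 3.57% of that of Ca_28211 in each of the 8 libraries, and that of Ca_25190 between 3.13% and 5.81%. In total, 32 of the genes compared that were at 1 FPKM or more at S4 were at least 4-fold higher at both S3 and S5 than at S4.

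The other genes among the 6 highest at S5 differed in their course. Ca_17267, a member of the desiccation list, was at 1172 FPKM at S4 and 27921 FPKM at S5, against 2.29 FPKM at S3, 9.26 at S6 and 9.42 at S7, and was listed at 0 in leaf and at S1. Its high values were confined to S4 and S5 among the 8 libraries. Ca_24988 was listed at 0 at S3 and S4 and at 39680 FPKM at S5, although it stood at 4117 FPKM at S2 and at 14.4 FPKM at both S6 and S7. A listing at 0 next to such values can be a failed estimate, so no fold difference is given for it. Ca_13501, summed over 2 loci, differed by less than 2-fold, with 13757 FPKM at S4 and 23707 FPKM at S5, and was higher still at S6 (41651 FPKM).

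The genes highest at S4 after Ca_28211 and Ca_13501 also differed little. Ca_05806 was at 7875 FPKM at S4 and 7052 FPKM at S5, Ca_16345 at 6939 and 10840, Ca_05638 at 5754 and 7489, and Ca_09333 at 5112 and 5979 FPKM. Their log2 differences lay between -0.16 and 0.64. Ca_05806 was at 63.2 FPKM in leaf and above 1000 FPKM at every seed stage, whereas the other 3 were above 1000 FPKM in all 8 libraries.

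The largest differences towards S5, among genes at 1 FPKM or more at both stages, belonged to genes near the bottom of the range at S4 and above 1000 FPKM at S5. Ca_00443 went from 1.27 to 8040 FPKM (log2 difference of 11.79) and Ca_02720 from 3.15 to 3743 FPKM (9.82). Both were below 0.5 FPKM in leaf and at S1, S2 and S3, and both were low again afterwards, at 63.7 and 31.6 FPKM at S6. Ca_12606 went from 4.07 to 10799 FPKM (11.06) and was at 17985 FPKM at S6, and Ca_05673, summed over 2 loci, went from 2.74 to 1829 FPKM (8.94) and was at 6301 FPKM at S6. Ca_12229, from the grain filling list, went from 1.95 to 5502 FPKM (10.86), with 1665 FPKM at S6, and Ca_02721 from 3.68 to 2498 FPKM (9.06), with 1062 FPKM at S6. These genes therefore shared the step between S4 and S5 and parted at S6. The identifiers Ca_02720 and Ca_02721 are consecutive, and the files do not give their positions.

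Of the 30 genes with the largest differences towards S5 (6.76 to 11.79), 24 were below 1 FPKM in leaf and 27 stayed below 10 FPKM at S1, S2 and S3. Of all genes at 1 FPKM or more at both stages, 10.2% were below 1 FPKM in leaf. At S6, 20 of the 30 were at 100 FPKM or more and 6 were below 1 FPKM, and 13 were higher at S6 or S7 than at S5. The set was chosen on S4 and S5 alone, so the values in the other libraries describe it without having entered the choice. Such differences favour genes that are low at S4 (1.04 to 72.7 FPKM here), so low values in the earlier stages are partly set by the choice.

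The largest differences in the other direction belonged to genes between 80.1 and 836 FPKM at S4. Ca_11701 was at 433 FPKM at S4 and 1.33 FPKM at S5 (-7.54), after 1190 FPKM at S2 and 1197 FPKM at S3, and was below 1 FPKM at S6 and S7. Ca_14772 was at 836 and 3.68 FPKM (-7.48), Ca_00331 of the seed-weight QTL list at 364 and 4.81 FPKM (-5.97) and Ca_02576 at 80.1 and 1.21 FPKM (-5.20), and all were below 1 FPKM at S6 and S7. These genes had been between 15.8 and 1197 FPKM at S1, S2 and S3. The other 2 genes were high at S4 only among neighbouring stages. Ca_15084 was at 1.34 FPKM at S3, 85.6 at S4 and 1.22 at S5 (-5.29). Ca_23991 was listed at 0 at S3 and stood at 330 FPKM at S4, 1.40 FPKM at S5 and 58.7 FPKM at S6 (-7.11). Of the 30 genes with the largest differences in this direction (-7.54 to -3.54), 20 were below 1 FPKM at S6, against 3273 of all 14722 genes compared. The 30 were taken only from genes at 1 FPKM or more at both stages, whereas the 14722 include genes below 1 FPKM at S5. Such differences also favour genes that are low at S5 (1.13 to 24.8 FPKM here), so low values at S6 are partly set by the choice.

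**Figure D2:**
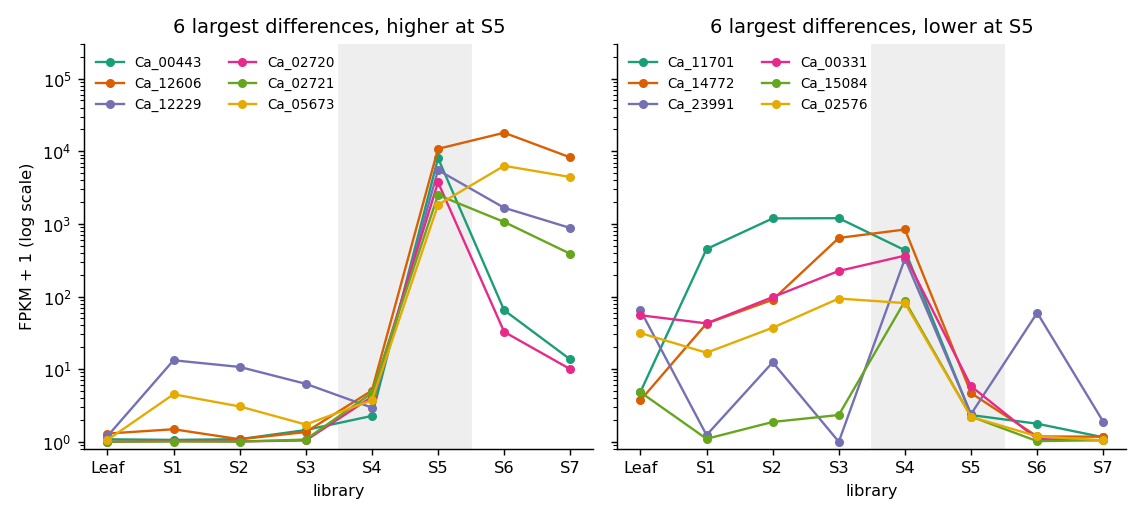
Lines give FPKM + 1 (log scale) in the 8 libraries for the 6 genes with the largest log2 differences in each direction, with S4 and S5 shaded. The genes higher at S5 (left) shared the step to above 1000 FPKM and parted at S6, where Ca_12606 was at 17985 FPKM and Ca_02720 at 31.6 FPKM, and the genes lower at S5 (right) were below 1 FPKM at S6 except Ca_23991 at 58.7 FPKM.

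Genes that crossed from below 1 FPKM to 10 FPKM or more, or the reverse, were described separately. There were 103 genes below 1 FPKM at S4 and at 10 FPKM or more at S5, with a median of 29.5 FPKM at S5, 10.8 at S6 and 4.25 at S7. Of these, 61 had been below 1 FPKM at S1, S2 and S3 as well, 55 were at 10 FPKM or more at S6, and 11 were below 1 FPKM in every other library. Over all genes compared, 4.44% were below 1 FPKM at S1, S2 and S3, and the median at S6 was 9.57 FPKM. The choice asked for less than 1 FPKM at S4, so low earlier values are partly set by it. The highest of the 103 after Ca_24988 were Ca_25605, at 0.19 FPKM at S4 and 14450 FPKM at S5, and Ca_07811, at 0.644 and 9493 FPKM. Both remained high in the later stages, Ca_25605 at 3971 FPKM at S6 and 3565 at S7, and Ca_07811 at 2699 and 1460 FPKM.

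In the reverse direction, 81 genes were at 10 FPKM or more at S4 and below 1 FPKM at S5. For 43 of these genes, S6 and S7 were below 1 FPKM too, as they were for 21% of all genes compared. The choice asked for less than 1 FPKM at S5, so low later values are partly set by it. An exact 0 at S5 was listed for 37 of the 81. The 3 that were highest at S4 were Ca_06966, at 1623 FPKM at S4 and 9640 at S7, Ca_06213, summed over 2 loci, at 1332 FPKM at S4 and 16949 at S6, and Ca_27688, at 466 FPKM at S4 and 3159 at S7, and each was listed at 0 at S5. Of the 37 genes, 19 were at 10 FPKM or more at S6 or S7, 19 were so in leaf and 15 were also listed at 0 at S3. They are counted among the lower genes, but a 0 between such values can be a failed estimate. Over all genes, 6439 were listed at 0 at S4 and 8338 at S5. Without the genes listed at 0 at either stage, 1812 genes were higher and 1780 lower.

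The genes higher and the genes lower at S5 were next followed in libraries that had no part in choosing them. The median level of the 1853 higher genes was 5.92 FPKM at S3, 6.20 at S4, 31.8 at S5, 16.0 at S6 and 11.4 at S7, and that of the 1965 lower genes was 9.10, 9.74, 2.27, 0.733 and 0.522 FPKM. The medians of both groups thus differed little between S3 and S4. At S6 and S7, the median was above that at S4 for the higher genes and below it for the lower genes. For the higher genes, the median at S7 was nearer to that at S4 than to that at S5. Between S3 and S6, 28.5% of all genes compared were at least 2-fold higher at S6 and 31.3% at least 2-fold lower. Of the genes higher at S5, 893 (48.2%) were higher at S6 than at S3 and 365 (19.7%) lower, with a median log2 difference of 0.86. Of the genes lower at S5, 186 (9.47%) were higher and 1315 (66.9%) lower, with a median of -1.84. After rescaling to the same sum, the share of the lower genes that were lower at S6 was 56.9% against 48.9% of all genes, and the share of the higher genes that were higher at S6 was 50.6% against 12.7%.

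Since 412 of the higher genes reached 1 FPKM only at S5 and 685 of the lower genes only at S4, shares of genes with low values in other libraries were taken over the 12854 genes at 1 FPKM or more at both stages, of which 1441 were higher and 1280 lower. Of these lower genes, 40.2% were below 1 FPKM at both S6 and S7, against 14.4% of the higher genes and 14.9% of all. Of the higher genes, 5.14% had been below 1 FPKM at S1, S2 and S3, against 1.13% of all. In leaf, 20.1% of the higher and 18.8% of the lower genes were below 1 FPKM, against 10.2% of all.

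**Figure D3:**
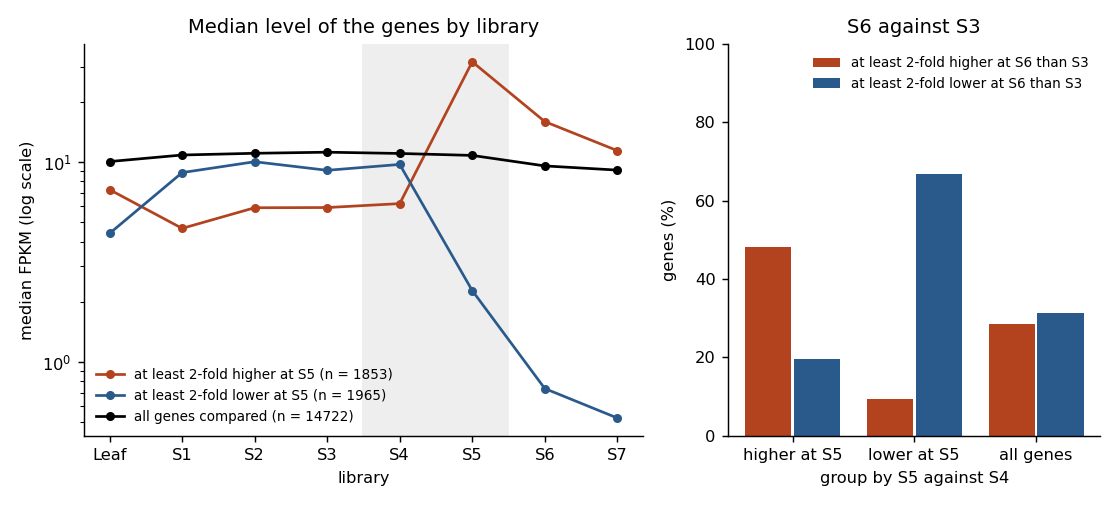
The left panel gives the median FPKM (log scale) in each library of the 1853 genes higher at S5, the 1965 genes lower at S5 and all 14722 genes compared, with S4 and S5 shaded, and the right panel the percentage of each group at least 2-fold higher or lower at S6 than at S3. The median of the higher genes was 31.8 FPKM at S5 and 16.0 at S6, the lower genes went from 9.74 FPKM at S4 to 0.733 at S6, and 48.2% of the former but 9.47% of the latter were higher at S6 than at S3.

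The 6 lists of genes were then placed on the comparison. The study assigned genes to desiccation, grain filling, cell growth, cell cycle and differentiation by Gene Ontology terms, and to quantitative trait loci (QTLs) for seed weight from earlier mapping. The lists for cell cycle, differentiation, grain filling and desiccation were used as given for genes with differential methylation or expression between stages of the large-seeded cultivar JGK 3, and those for cell growth and QTLs as given for the comparison of both cultivars at S3 and S5. The Himchana 1 seeds at S5 entered that choice, so these last lists are not independent of the values described here. The lists overlap, with 133 genes shared between cell growth and differentiation (68.2% of the former, 17.2% of the latter). The counts below stand beside 12.6% higher and 13.3% lower over all genes compared.

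The cell cycle list leaned towards lower values at S5. Of its 318 genes, 306 had a value and 247 were compared, of which 12 (4.86%) were higher and 57 (23.1%) lower, with a median of -0.44 against -0.04 over all genes. The median of the list lay below that of all genes under each of the 13 alternative settings tried for it, by 0.20 to 0.51. The lower genes were mostly of low level. Among the 104 members at 10 FPKM or more in either stage, 10 were higher and 12 lower (11.5%, against 11.0% of all genes at this level). The largest difference among members above 0 at both stages was that of Ca_14124, at 44.1 FPKM at S4 and 0.878 FPKM at S5 (-4.59). Ca_09960, at 38.6 FPKM at S4, was listed at 0 at both S3 and S5 and was at 275 FPKM at S6. The largest difference towards S5 was that of Ca_07489, from 5.52 to 67.1 FPKM (3.38), which was higher still at S6 (134 FPKM) and S7 (145 FPKM). Between S3 and S6, the median of the list was -0.91, against -0.07 over all genes.

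Of the 195 cell growth genes, 146 were compared, of which 17 (11.6%) were higher and 32 (21.9%) lower, with a median of -0.24. Ca_28193, summed over 2 loci, went from 0.967 FPKM at S4 to 78.3 FPKM at S5 (5.33), with 7.43 FPKM at S6. Ca_08516 went from 38.9 to 1.88 FPKM (-3.79), after 145 FPKM at S2 and 58.2 FPKM at S3.

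The differentiation list was close to all genes. Of its 775 genes, 596 were compared, of which 72 (12.1%) were higher and 85 (14.3%) lower, with a median of -0.18. Single members nevertheless differed widely, as Ca_04583 went from 2.56 to 1706 FPKM (8.90) and was at 17242 FPKM at S6, and Ca_07635 from 106 to 0.635 FPKM (-6.03), after 374 FPKM at S1 and 81.8 FPKM at S3.

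The desiccation list leaned towards higher values. Of its 162 genes, 129 were compared, of which 43 (33.3%) were higher and 17 (13.2%) lower, with a median of 0.18. Among the 95 members at 10 FPKM or more in either stage, 36 (37.9%) were higher, against 15.5% of all genes at this level. With no filter on low values, its median and that of all genes were both 0. Under the rest of the 13 alternative settings, its median lay above that of all genes by 0.17 to 0.28. Under the rescaling to the same sum, 19 members were higher and 69 lower, against 553 and 9858 of all genes. Ca_19754 went from 0.404 FPKM at S4 to 566 FPKM at S5 (8.66), with 1191 FPKM at S6 and 1290 at S7. Ca_05125 went from 10.1 to 2423 FPKM and Ca_04763 from 13.2 to 862 FPKM, and both were higher at S6, at 2763 and 11790 FPKM (chosen after their values were seen). In the other direction, Ca_10207 went from 36.9 to 4.74 FPKM (-2.72), and Ca_15692 was at 233 FPKM at S4, listed at 0 at S5 and below 1 FPKM in the other 6 libraries. Between S3 and S6, 62 of the 129 genes (48.1%) were higher and 39 (30.2%) lower, with a median of 0.64.

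Of the 163 grain filling genes, 134 were compared, of which 23 (17.2%) were higher and 16 (11.9%) lower. The median of -0.06 was close to that of all genes, but among the 84 members at 10 FPKM or more in either stage, 19 (22.6%) were higher and 7 (8.33%) lower, with a median of 0.29 against 0.11 over all genes at this level. The higher members included Ca_12229, described above, and, chosen after their values were seen, Ca_01091, from 1.11 to 109 FPKM, and Ca_01026, from 1.69 to 76.0 FPKM. Ca_01026 was far higher later, at 6390 FPKM at S6 and 9929 FPKM at S7. Ca_15382 went from 12.8 to 0.982 FPKM (-2.80), and Ca_07751, at 8.67 FPKM at S4, was listed at 0 at S5 and S6 and was at 5688 FPKM at S7. Between S3 and S6, the list had a median of -1.06, with 25 genes higher (18.7%) and 69 lower (51.5%). The position of the list therefore differed between both pairs of stages.

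The seed-weight QTL list was close to all genes too. Of its 1027 genes, 750 were compared, of which 98 (13.1%) were higher and 125 (16.7%) lower, with a median of -0.08. Ca_01746 went from 0.689 FPKM at S4 to 3737 FPKM at S5 (11.11), and was also high in leaf (694 FPKM). Its level was 160 FPKM at S6 and 2.63 FPKM at S7. Ca_00331, described above, had the largest difference in the other direction among members above 0 at both stages, and Ca_04377, summed over 2 loci, was at 62.0 FPKM at S4, listed at 0 at S5 and at 62.4 FPKM at S6.

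**Figure D4:**
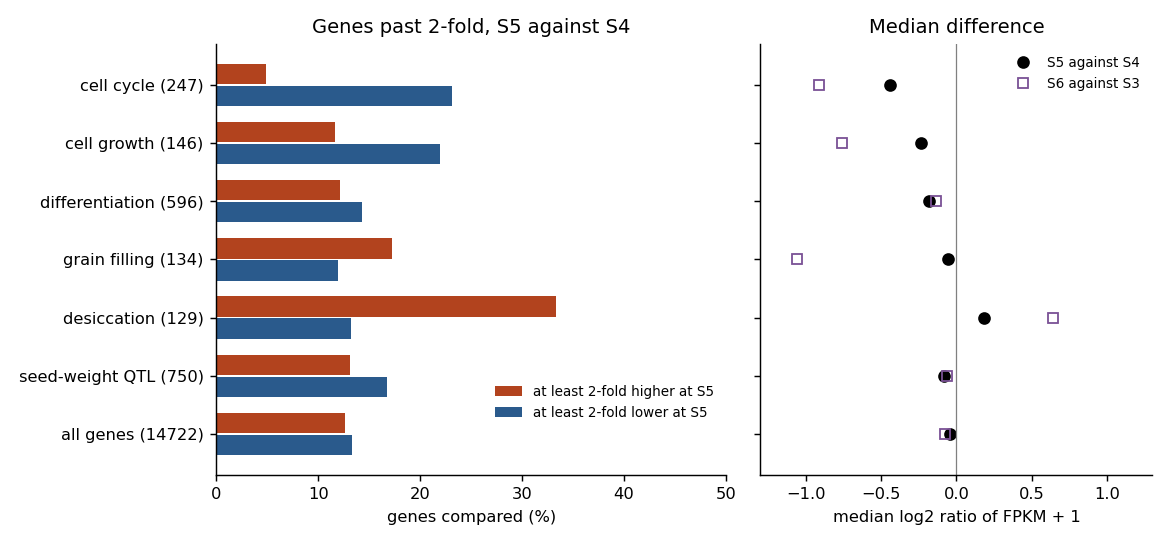
The left panel gives, for each of the 6 lists and for all genes, the percentage of the genes compared (number in brackets) at least 2-fold higher or lower at S5 than at S4, and the right panel the median log2 ratio for S5 against S4 (circles) and S6 against S3 (squares). Cell cycle had 4.86% higher and 23.1% lower and desiccation 33.3% higher and 13.2% lower, beside 12.6% and 13.3% of all genes.

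The 25 genes that the study names by function were given in full. Apart from the methyltransferase and demethylase genes, the study named them for higher expression in JGK 3 than in Himchana 1 at S3 and/or S5. The Himchana 1 seeds at S5 entered that choice, so the values of those genes are not independent of it. Of the 25 genes, 24 were compared. S5 exceeded S4 by 2-fold or more in 3 of them, and S4 exceeded S5 as much in 5. Over all genes compared, these shares were 12.6% and 13.3%. The remaining gene, the demethylase gene Ca_07031, was below 1 FPKM at both stages (0.945 and 0.226 FPKM). With it included, 19 of the 25 were below their S4 level in any degree. The median over all genes compared was near 0 (-0.04), and the share of all genes below their S4 level was not counted. The count also depends on the scaling. After rescaling to the same sum, with a median of -1.31 over all genes, only Ca_17326 (0.47), Ca_17329 (1.03) and Ca_06937 (2.37) were above their S4 level. None of the 25 was above 51.0 FPKM at either stage, and at such low levels the added 1 FPKM weighs on the ratio.

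DNA methyltransferases copy or place methyl groups on cytosine, in a division of labour known from Arabidopsis: MET1 maintains CG, CMT3 maintains CHG, and CMT2 and DRM2 act on CHH. CaCMT3 (Ca_23587) was at 4.72 FPKM at S4 and 0.715 FPKM at S5 (-1.74), after 31.7 FPKM at S1, and was listed at 0 at S6. CaMET1 (Ca_18432) was at 2.39 and 1.18 FPKM (-0.64) and CaCMT2 (Ca_17866) at 1.66 and 0.482 FPKM (-0.84). All of these were highest at S1 among the 8 libraries. CaCMT1 (Ca_20580), summed over 2 loci, was at 17.5 and 14.9 FPKM (-0.22), and it was at 0.439 FPKM at S6. CaDRM1 (Ca_12577) was at 14.5 and 7.91 FPKM (-0.80). CaDRM2 (Ca_03062) alone was above its S4 level, at 15.7 and 21.4 FPKM (0.43), and it was below it after rescaling to the same sum (-0.97) or to the same sum without Ca_28211 (-0.39). The highest of the 6 genes at S5 were thus CaDRM2, CaCMT1 and CaDRM1.

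DNA demethylases of plants are glycosylases that cut out methylated cytosine. Ca_17329 was at 1.46 FPKM at S4 and 10.2 FPKM at S5 (2.18), and Ca_17326 at 0.958 and 4.37 FPKM (1.46). Both were highest at S5 among the 8 libraries and were at 2.45 and 1.72 FPKM at S6. After rescaling to the same sum, the differences were 1.03 and 0.47. Ca_17547 was at 35.7 and 37.5 FPKM (0.07), Ca_20137, summed over 2 loci, at 15.0 and 14.2 FPKM (-0.07), and Ca_08414, also summed over 2 loci, at 4.76 and 2.57 FPKM (-0.69). The same rescaling put all of these more than 2-fold lower, at -1.37 for Ca_17547, -1.45 for Ca_20137 and -1.80 for Ca_08414, and Ca_17547 was also below its S4 level with the sum without Ca_28211 (-0.77) and the upper quartile (-0.23).

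CDC6 and the minichromosome maintenance (MCM) proteins license replication origins before DNA is copied. CDC6 (Ca_15618) was at 1.93 FPKM at S4 and 0.587 FPKM at S5 (-0.88). The minichromosome genes Ca_09549, Ca_15408 and Ca_12014 were at 7.45 and 3.99 FPKM (-0.76), 6.82 and 3.02 FPKM (-0.96), and 2.27 and 1.20 FPKM (-0.57). All 4 were lower at S5, by less than 2-fold on the scale used. With a pseudocount of 0.1 FPKM, CDC6 (-1.56) and Ca_15408 (-1.15) passed 2-fold, and after rescaling to the same sum all 4 did (-2.12 to -1.46). All had been highest at S1, where Ca_09549 was at 46.5 FPKM.

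GH3 proteins join amino acids to hormones such as auxin. The GH3 genes differed in opposite directions. Ca_06937 went from 3.04 FPKM at S4 to 51.0 FPKM at S5 (3.69) and was at 75.8 FPKM at S6 and 101 FPKM at S7. Ca_23631 went from 7.99 to 1.53 FPKM (-1.83), after 120 FPKM at S2, and was below 1 FPKM at S6 and S7. Neither direction turned under the scalings tried, where the differences lay between 2.37 and 3.67 for Ca_06937 and between -2.88 and -1.90 for Ca_23631.

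Auxin response factors (ARFs) bind the promoters of auxin-responsive genes, and B-type response regulators (ARR-B) act in cytokinin signalling. The ARF gene Ca_10748 was at 31.9 FPKM at S4 and 16.2 FPKM at S5 (-0.93), and at 0.681 FPKM at S6. The ARR-B gene Ca_14780 was at 2.25 and 4.78 FPKM (0.83), and was below its S4 level (-0.30) after rescaling to the same sum. The largest difference was that of the homeobox gene Ca_04491, at 12.5 and 0.911 FPKM (-2.82), which was at 4.76 FPKM at S6. The C3HC4-type zinc finger gene Ca_09815 was at 19.1 and 3.37 FPKM (-2.20) and below 0.1 FPKM at S6 and S7, and the dof zinc finger gene Ca_09238 at 3.29 and 1.04 FPKM (-1.07). The remaining genes of QTLs, the RNA recognition motif gene Ca_09981 at 3.14 and 1.45 FPKM (-0.76) and the F-box gene Ca_01760, summed over 2 loci, at 36.0 and 21.7 FPKM (-0.71), were both higher at S6 than at S4, at 5.12 and 94.9 FPKM.

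**Figure D5:**
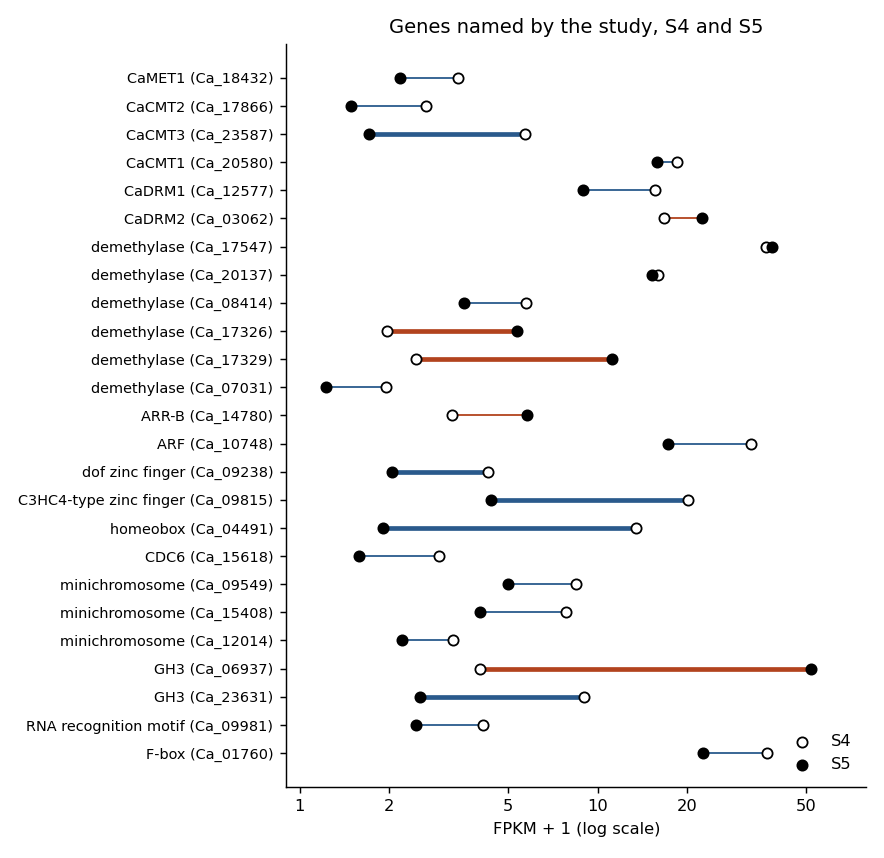
FPKM + 1 (log scale) at S4 (open circles) and S5 (filled circles) is given for the 25 genes named by the study, with thick lines where the log2 ratio was 1 or more in either direction, red where S5 was higher and blue where it was lower. GH3 Ca_06937 has the longest line to the right (51.0 FPKM at S5) and homeobox Ca_04491 the longest to the left (0.911 FPKM at S5), and 19 of the 25 lines point to lower values.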

How the data were processed

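RNA from Himchana 1 leaves and whole seeds was sequenced by the authors (Illumina). They used NGS QC Toolkit to filter reads, TopHat to map these to the chickpea genome, and Cufflinks for FPKM. The deposited FPKM values give 1 merged value per stage for 3 replicates, and how these were merged is not given in the sources used here. Depth is therefore unknown, and no error or test was computed. All 8 columns used were mapped to groups, with 0 left over. Each column holds 35234 loci. The 26305 with 1 identifier were summed per gene (1168 genes had several), and 1661 that join identifiers and 7268 without one were left out. A RefSeq table of 29938 genes matched 0 identifiers, so neither positions nor sequences are given.

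The members and lists were chosen with earlier results of these data known. Named genes were those the study names, the 6 largest differences each way at 1 FPKM or more at both stages, the 6 highest at S4 and at S5, the largest differences each way per list, and the 3 highest genes below 1 FPKM at the other stage. Where a list's lowest gene was listed at 0, the next above 0 was added. Alternatives were pseudocounts of 0.1 and 0.01, filters, scalings, handling of loci and 4-fold. Leaving out genes listed at 0 was added after seeing the data. The counting was tested on simulated data. Python 3.11.15, numpy 2.4.6, pandas 2.3.3, scipy 1.17.1 and matplotlib were used.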

Additional observations from a re-analysis of the deposited data

Results flagged for a closer look

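Loci that carry no gene identifier took no part in the comparison of genes. At 40 of them, FPKM was below 1 at S4 and in leaf and 10 or more at S5. Of the 14722 genes compared, 63 met the same limits. Of the 2156 loci without an identifier at 1 FPKM or more at S4 or S5, 545 (25.3%) had a higher S5 value by 2-fold or more. A lower one was found for 510 (23.7%), and both shares were above the 12.6% and 13.3% of genes. Levels were not matched for this. Genes with a mean below 1 FPKM in the other 6 libraries had 27.3% higher and 19.9% lower. The locus highest at S5 was at 17588 FPKM, against 331 FPKM at S4, 7146 at S3 and 4754 at S6, and was listed at 0 in leaf. What these loci encode was not tested.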

How the results depend on the processing

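No paired analysis was possible because each stage holds 1 merged value and the replicates are not separate columns, and leaving out a replicate was not possible for the same reason. The counts moved most with the scaling. Genes at least 2-fold higher (1853) numbered 553 after rescaling to the same sum, 876 to the same sum without Ca_28211 and 630 at 4-fold. Genes at least 2-fold lower (1965) numbered 9858, 5788 and 453 under the same settings, 2964 with upper-quartile scaling, 1280 with 1 FPKM or more at both stages and 967 with 10 FPKM or more in either. The median difference (-0.04) was 0.11 with the latter filter, -1.31 and -0.80 under both sums and -0.31 with the upper quartile.

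Of the genes higher at S5, the share higher at S6 than at S3 (48.2%, against 28.5% of all genes) was 50.5% with a pseudocount of 0.01, 52.0% at 10 FPKM or more, 50.6% and 43.0% under both sums, 42.2% with the median of ratios and 43.3% with the upper quartile, while that of all genes lay between 11.7% and 32.8% under these settings. Of the genes lower at S5, the share lower at S6 (66.9%, against 31.3%) was 69.6% and 69.7% with pseudocounts of 0.1 and 0.01, 71.7% with 1 FPKM or more at both stages, 71.9% at 10 FPKM or more, 56.9% under the same sum, 70.3% with the median of ratios, 69.5% with the upper quartile and 69.9% with genes above 0 at both stages, a setting chosen after seeing the data. The share of all genes lower at S6 lay between 30.7% and 40.5% under these settings, but was 48.9% under the same sum. For the genes named by the study, 270 of 321 alternative values stayed on their side of 2-fold. No gene past 2-fold in the deposited values turned its direction, whereas Ca_17547, near 0 there, was at -1.37 under the same sum. For the lists, 166 of 234 counts and medians stayed within 1.5 times or 0.1. Beyond the construction of each setting, causes were not tested.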

Other observations

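Some genes that were lower at S5 alternated between stages, a pattern noticed after the values were seen. In 13 genes, S2, S4 and S6 were all more than 4-fold above S1, S3, S5 and S7, and in each of the 13, leaf was also more than 4-fold above these odd-numbered stages. In 0 genes did S1, S3, S5 and S7 all lie more than 4-fold above S2, S4 and S6. Of the 13, 11 were listed at 0 at S5. Ca_23991 is 1 of them, with 63.7 FPKM in leaf, 11.4 at S2, 330 at S4 and 58.7 at S6, against 0.236 FPKM at S1, 1.40 at S5, 0.883 at S7 and a listing at 0 at S3. Ca_24085 was at 19.4 FPKM in leaf, 2.66 at S2, 89.9 at S4 and 22.8 at S6, and was listed at 0 at S5 and at 0.015 FPKM or less at S1, S3 and S7. Ca_00243 was at 310 FPKM in leaf, 29.4 at S2, 29.0 at S4 and 8.31 at S6, and between 0.17 and 1.21 FPKM at the other stages. The cause was not tested.

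Genes with a low point at S4 and genes with a high point there were also counted. S3 and S5 were both at least 4-fold above S4 in 32 genes at 1 FPKM or more at S4, of which 9 were at 1000 FPKM or more at S5. In the reverse pattern, S4 was at least 4-fold above S3 and S5 in 134 genes, of which 77 were listed at 0 at S5 and 41 at both S3 and S5. The limit of 1 FPKM at S4 left out low points below it. Ca_03373, for example, was at 2357 FPKM at S3, listed at 0 at S4 and at 4297 FPKM at S5. The counts of both patterns are therefore not comparable. Besides the genes described above, Ca_06747 was at 23568 FPKM at S3, 16.2 at S4 and 1375 at S5, and Ca_25931 was at 2055, 327 and 3114 FPKM at the same stages and below 1 FPKM at S6.

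Of the 37 genes listed at 0 at S5 and at 10 FPKM or more at S4, 12 lay within 5 identifier numbers of another such gene. Among these, Ca_09956, Ca_09960, Ca_09961, Ca_09965, Ca_09967, Ca_09968 and Ca_09969 were listed at 0 at S3 as well, and each was between 12.0 and 126 FPKM at S4 and between 9.92 FPKM (Ca_09967) and 1304 FPKM (Ca_09965) at S6. The other 5, Ca_06965, Ca_06966, Ca_15690, Ca_15691 and Ca_15692, were above 0 at S3. Their positions in the genome were not examined.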
